A study of Drosophila melanogaster with 16 samples.

Results

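Circular RNAs form when the spliceosome joins a downstream 5′ splice site to an upstream 3′ splice site, and their amount depends on proteins that bind introns, edit them, end transcription or carry the circle out of the nucleus. The 8 genes described here encode such proteins in Drosophila melanogaster: mbl, Adar, Hel25E, Slu7, Cpsf73, Cpsf100, Cpsf160 and Rat1. They were picked by FlyBase symbol, a rule that uses no measured value, but with earlier results of these data known. All 8 were found among the 17737 genes of the deposited count table and passed the filter on low counts in every fit. The values are read counts per gene, so they give the level of the RNA of each factor and not the level of any circular RNA, and reads from a circle of a gene are counted with its linear RNA.

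The cells were Schneider 2 (S2) cells, a hemocyte-like line derived from fly embryos, and ribosomal-depleted RNA was sequenced in 16 libraries. The libraries labelled December comprised 3 in which PARP1 was knocked down with siRNA (KD), 3 treated with the PARP inhibitor PJ34 at 10 µM for 16 h (PARPi) and 3 wild-type (WT) libraries. Those labelled October comprised 4 KD and 3 WT libraries and no PARPi library. The sources used here give neither a control RNA or vehicle for the WT cells nor what else differed between the months. The study calls its sequencing experiments independent but does not say which libraries came from separate cultures, so the p-values measure the spread between libraries. Total counts were between 58531662 and 90439074 per library. Parp1 mRNA had a log2 fold change of -0.14 in December (adjusted p = 0.32, edgeR) and -0.15 in October (adjusted p = 0.0962, edgeR), and in October it was called in 5 of 14 alternatives. In PARPi of December, where PARP1 was not knocked down, Parp1 was also at -0.14 relative to WT (adjusted p = 0.482, edgeR). KD relative to PARPi was 0.0022 (adjusted p = 0.988, edgeR). The December mRNA counts therefore do not check the KD label. In October the KD and WT libraries overlapped for Parp1, and there was no PARPi group to compare. Those counts do not check the label either. The depletion was checked by western blot according to the labels. Of the 8 hemocyte markers, 7 were at or above 1 CPM (counts scaled by TMM to a common library total) in each group, and NimC1 was the exception. The neuronal genes elav and brp and the glial gene moody were also present, at 25.2 CPM or more in the December WT libraries. The other neuronal markers, nSyb and Syt1, and the glial marker repo had means of 0.0535, 0.268 and 0.0281 CPM there. All 4 muscle markers were below 1 CPM.

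As background, Muscleblind (mbl) is a zinc finger splicing factor that binds introns beside an exon of its own transcript and promotes the circularization of that exon. Adar deaminates adenosine in double-stranded RNA, and editing of paired introns can open the hairpins that bring splice sites together. Slu7 acts in the second catalytic step of splicing, Cpsf73 is the endonuclease that cuts pre-mRNA at the 3′ end, Cpsf100 is its catalytically inactive partner, and Cpsf160 belongs to the module that recognises the polyadenylation signal. Rat1 is the fly form of the XRN2 exonuclease, which degrades the RNA left on polymerase after cleavage and so helps to end transcription, and Hel25E is the UAP56 helicase of messenger RNA export, which also exports long circular RNAs in fly cells. In fly cells, limiting splicing or cleavage factors is known to shift the output of some genes toward circles.

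The genes differ in structure. On the BDGP6 assembly, mbl (FBgn0265487) lies on chromosome 2R from 17216549 to 17379376 on the plus strand, spans 162828 bases with 15094 bases of exon, and has an intron of up to 75030 bases. Adar (FBgn0026086) lies on X from 1773725 to 1788065 (plus strand), wholly inside the span of prage on the same strand, with which it shares 498 exon bases. Hel25E (FBgn0014189) lies on 2L from 5539326 to 5542314 (minus strand) and Rat1 (FBgn0031868) on 2L from 6908083 to 6911423 (plus strand), where Rat1 shares 334 exon bases with Wee1 on the opposite strand. Slu7 (FBgn0039626, 3R from 29037058 to 29039071, minus strand) and Cpsf100 (FBgn0027873, 3R from 29034573 to 29037062, plus strand) are convergent neighbours whose last exons overlap by 5 bases. Cpsf73 (FBgn0261065, 3R from 18661121 to 18663552, minus strand) shares 6 exon bases with CstF64, the gene of another cleavage factor, on the opposite strand. Cpsf160 (FBgn0024698) lies on 2R from 14497347 to 14503488 (minus strand). The sources used here do not say whether the counting used the strand, so reads in bases shared between strands may belong to either gene. For Adar and prage, on the same strand, the strand could not tell such reads apart. Whether reads in shared bases were counted or left out was not found either.

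To compare genes with each other, CPM was divided by the summed exon length in kilobases, on one TMM scale for all 16 libraries. Hel25E stood far above the other members, at 112 ± 2.14 CPM per kb in KD, 119 ± 3.88 in PARPi and 117 ± 9.73 in WT of December (SD, n = 3 each), and at 93.2 ± 1.64 in KD (n = 4) and 87.5 ± 2.77 in WT (n = 3) of October. The median over 12721 genes was 2.84 CPM per kb in WT of December and 3.06 in WT of October. In WT of December, Cpsf73 (11.7 ± 0.488 CPM per kb), Rat1 (10.8 ± 0.569), Slu7 (10.2 ± 0.245) and Cpsf100 (10.1 ± 0.0701) followed in this order, and each of these neighbours overlapped the next in range. Cpsf160 (8.68 ± 0.550 CPM per kb), Adar (4.79 ± 0.323) and mbl (2.32 ± 0.180) came below them without overlap of ranges (SD, n = 3 for each gene). In WT of October the order below Cpsf73 (12.2 ± 0.562 CPM per kb) was another: Cpsf160 (7.11 ± 0.308) and Slu7 (6.97 ± 0.225) overlapped, Rat1 (5.35 ± 0.708), Adar (5.07 ± 0.647) and Cpsf100 (4.41 ± 0.316) overlapped from neighbour to neighbour, and mbl (1.82 ± 0.115) was again lowest (SD, n = 3 for each gene). The length counts every annotated exon, so a gene with many alternative exons such as mbl is set lower than a single transcript of it would be.

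**Figure D1:**
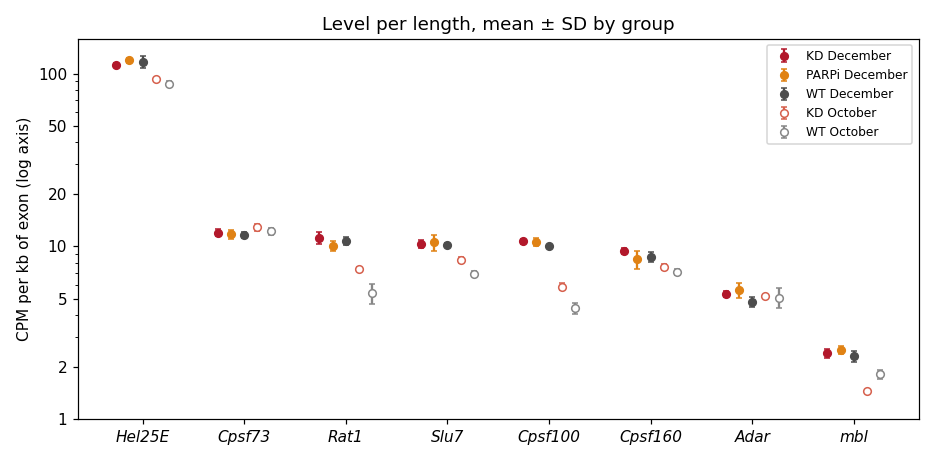
Mean level of each gene per kilobase of exon (CPM per kb, log axis) in the 5 groups, with the SD between libraries as bars (n = 3, or 4 for KD of October); filled points are December and open points October. Hel25E lies near 100 CPM per kb, mbl lies lowest, and the open points of Rat1 and Cpsf100 lie well below their filled points.

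In December, none of the 8 genes was called in KD vs. WT or in PARPi vs. WT at an adjusted p below 0.05 (the quasi-likelihood test of edgeR, adjusted by Benjamini-Hochberg over all 11729 genes tested), where 7.73% and 0.29% of all genes were called. DESeq2 also called 0 of the 8 in each. At an unadjusted p below 0.05 there were 0 in KD vs. WT and 1, Adar, in PARPi vs. WT. The log2 fold changes were between -0.064 and 0.14 in KD and between -0.10 and 0.22 in PARPi, with medians of 0.052 and 0.032, beside medians of 0.015 and -0.0099 over all genes tested. The 95% intervals of all 8 genes lay between -0.21 and 0.30 in KD and between -0.26 and 0.38 in PARPi. In bulk RNA, fewer cells with a transcript and less of it per cell cannot be told apart.

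The splicing regulator mbl had 35.9, 32.5 and 35.6 CPM in the 3 KD libraries and 36.4, 33.7 and 37.5 CPM in the 3 PARPi libraries, against 36.0, 33.2 and 30.9 CPM in the 3 WT libraries of December. The 3 groups overlapped, and the log2 fold change was 0.055 (95% interval -0.10 to 0.21, adjusted p = 0.752, edgeR) in KD and 0.10 (95% interval -0.048 to 0.26, adjusted p = 0.618, edgeR) in PARPi. Adar had 43.5, 44.4 and 47.5 CPM in the 3 KD libraries and 43.8, 46.4 and 52.7 CPM in the 3 PARPi libraries, against 43.0, 41.8 and 37.8 CPM in the 3 WT libraries. All 3 KD and all 3 PARPi libraries lay above the highest WT library, an order without overlap that 25.0% of all genes showed in KD vs. WT and 15.0% in PARPi vs. WT. The means were 45.1 ± 2.07 CPM in KD, 47.6 ± 4.56 CPM in PARPi and 40.9 ± 2.73 CPM in WT (SD, n = 3 each). The log2 fold change of Adar was 0.22 (95% interval 0.062 to 0.38, adjusted p = 0.242, edgeR) in PARPi and 0.14 (95% interval -0.015 to 0.30, adjusted p = 0.312, edgeR) in KD, and an exact two-sided permutation test gave p = 0.1 in each, the smallest that 3 against 3 libraries allow. Both comparisons use the same 3 WT libraries. With a trend of the counts on gene length removed, Adar was called in PARPi (log2 fold change 0.27, adjusted p = 0.0438, edgeR), and its adjusted p ranged from 0.0438 to 0.659 over 14 alternatives. In KD it was called with plain totals that leave out the 20 most abundant genes (log2 fold change 0.27, adjusted p = 0.0435, edgeR), where the median over all genes was 0.14.

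The export helicase Hel25E had 264, 258 and 264 CPM in the 3 KD libraries and 283, 283 and 267 CPM in the 3 PARPi libraries, against 248, 285 and 289 CPM in the 3 WT libraries of December. WT replicate 1 was the lowest of the 9 libraries, and the WT range covered that of KD. The log2 fold change was -0.064 (95% interval -0.21 to 0.08, adjusted p = 0.683, edgeR) in KD and 0.019 (95% interval -0.12 to 0.16, adjusted p = 0.955, edgeR) in PARPi. Slu7, the factor of the second splicing step, had 18.9, 17.4 and 17.4 CPM in the 3 KD libraries and 20.5, 17.9 and 16.6 CPM in the 3 PARPi libraries, against 17.7, 17.4 and 18.3 CPM in the 3 WT libraries. The PARPi libraries spread most, from below to above all WT libraries. Its log2 fold changes were 0.0084 in KD (95% interval -0.15 to 0.17) and 0.044 in PARPi (-0.12 to 0.21).

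Among the cleavage factors, the endonuclease Cpsf73 had 26.0, 23.8 and 25.1 CPM in the 3 KD libraries and 26.2, 23.5 and 23.6 CPM in the 3 PARPi libraries, against 25.6, 24.0 and 23.6 CPM in the 3 WT libraries of December. The 3 groups overlapped, with log2 fold changes of 0.033 (95% interval -0.11 to 0.18) in KD and 0.0019 (95% interval -0.15 to 0.15) in PARPi. Its partner Cpsf100 had 25.0, 23.9 and 25.1 CPM in the 3 KD libraries and 26.0, 23.3 and 23.9 CPM in the 3 PARPi libraries, against 23.2, 23.1 and 23.5 CPM in the 3 WT libraries. All 3 KD libraries lay above the WT libraries, an order without overlap that 25.0% of all genes showed, while the lowest PARPi library lay within the WT range. The WT libraries lay closer together than the error of counting alone, with a coefficient of variation of 0.78% against 2.2% to 2.3%. The log2 fold change of Cpsf100 was 0.084 (95% interval -0.056 to 0.22) in KD and 0.067 (95% interval -0.074 to 0.21) in PARPi, and neither was called (adjusted p = 0.555 and 0.762, edgeR). Cpsf160 had 44.8, 41.7 and 43.4 CPM in the 3 KD libraries and 44.0, 35.1 and 37.0 CPM in the 3 PARPi libraries, against 41.8, 41.1 and 37.1 CPM in the 3 WT libraries. PARPi replicate 1 was well above the other 2 PARPi libraries, and the groups overlapped, with log2 fold changes of 0.11 (95% interval -0.051 to 0.28) in KD and -0.047 (95% interval -0.21 to 0.12) in PARPi. Rat1, the exonuclease of termination, had 38.7, 33.2 and 34.8 CPM in the 3 KD libraries and 34.5, 29.8 and 31.7 CPM in the 3 PARPi libraries, against 36.5, 33.2 and 33.4 CPM in the 3 WT libraries, with log2 fold changes of 0.05 (95% interval -0.11 to 0.21) in KD and -0.10 (95% interval -0.26 to 0.055) in PARPi.

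KD and PARPi were also compared with each other in December. None of the 8 genes was called by edgeR or by DESeq2 (5.52% of all genes were called by edgeR), and 0 had an unadjusted p below 0.05. Same-numbered KD and PARPi libraries deviated together, and with a replicate block 1738 of the 11729 genes were called, against 648 without it, but none of the 8, with the smallest adjusted p at 0.0704 for Cpsf160 and 0.0746 for Rat1 (edgeR). Cpsf160 and Rat1 had the largest values, with log2 fold changes of 0.16 (95% interval -0.0037 to 0.33, adjusted p = 0.248, edgeR) and 0.15 (95% interval -0.005 to 0.31, adjusted p = 0.252, edgeR) in KD relative to PARPi. Without PARPi replicate 1, Cpsf160 was called (log2 fold change 0.24, adjusted p = 0.0311, edgeR). Like 21.6% of all genes, Hel25E did not overlap between the groups, with all 3 KD libraries below all 3 PARPi libraries, and its log2 fold change was -0.083 (95% interval -0.23 to 0.061).

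**Figure D2:**
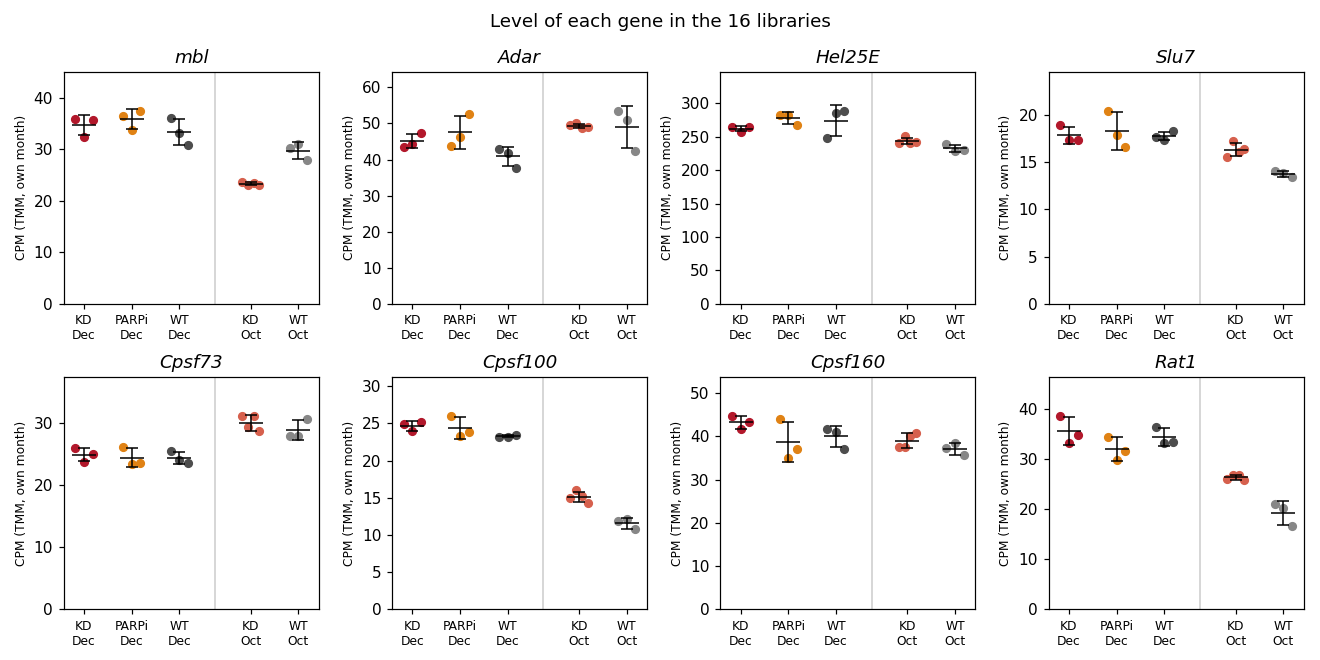
CPM of each gene in the 16 libraries, on the TMM scale of its own month; points are libraries, horizontal marks the means and bars the SD (n = 3, or 4 for KD of October), and the grey line divides the months. The December groups overlap or nearly overlap in every panel, while in October mbl is lower and Slu7, Cpsf100 and Rat1 are higher in all 4 KD libraries than in all 3 WT libraries.

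In October, 4 of the 8 genes were called in KD vs. WT by edgeR, 3 higher and 1 lower, where 27.8% of all genes tested were called, 13.8% higher and 14.0% lower. The transcripts of Rat1, Cpsf100 and Slu7 rose in KD and that of mbl fell. Adar, Hel25E, Cpsf73 and Cpsf160 were not called, with log2 fold changes between 0.009 and 0.071. The median over the 8 genes was 0.069, beside 0.011 over all 12096 genes tested, and DESeq2 called the same number.

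Rat1 had 25.9, 26.7, 26.8 and 25.8 CPM in the 4 KD libraries, against 21.0, 20.3 and 16.5 CPM in the 3 WT libraries of October. The lowest KD library lay above the highest WT library, and WT replicate 3 was the lowest of all. The means were 26.3 ± 0.534 CPM in KD (SD, n = 4) and 19.3 ± 2.39 CPM in WT (SD, n = 3), a log2 fold change of 0.45 (SE 0.0693, adjusted p = 5.46e-05, edgeR). Cpsf100 had 15.0, 16.0, 15.2 and 14.3 CPM in the 4 KD libraries, against 11.8, 12.2 and 10.7 CPM in the 3 WT libraries. All 4 KD libraries were again above all 3 WT libraries. Its means were 15.1 ± 0.692 CPM in KD (SD, n = 4) and 11.6 ± 0.741 CPM in WT (SD, n = 3), a log2 fold change of 0.39 (SE 0.0686, adjusted p = 0.000226, edgeR).

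Slu7, whose gene ends within the last bases of Cpsf100, had 15.5, 17.3, 16.1 and 16.4 CPM in the 4 KD libraries, against 14.1, 13.8 and 13.4 CPM in the 3 WT libraries of October. The groups did not overlap, and the mean was 16.3 ± 0.720 CPM in KD (SD, n = 4) and 13.8 ± 0.317 CPM in WT (SD, n = 3). The log2 fold change was 0.25 (SE 0.0630, adjusted p = 0.00572, edgeR). With TMM replaced by plain totals that leave out the 20 most abundant genes, it was 0.17 (adjusted p = 0.0607, edgeR). In that scaling the median over all genes moved to -0.063. Of the 4 calls, that of Slu7 was the only one lost, in 1 of 14 alternatives.

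mbl had 23.6, 23.1, 23.5 and 23.1 CPM in the 4 KD libraries, against 30.2, 31.1 and 27.9 CPM in the 3 WT libraries of October. The KD libraries lay below every WT library. Their range was narrower than the error of counting alone, with a coefficient of variation of 1.17% against 2.44% to 2.61%. The means were 23.3 ± 0.274 CPM in KD (SD, n = 4) and 29.7 ± 1.65 CPM in WT (SD, n = 3), a log2 fold change of -0.35 (SE 0.0549, adjusted p = 6.6e-05, edgeR). For each of the 4 genes an exact two-sided permutation test gave p = 0.0571, the smallest that 4 against 3 libraries allow, so this test cannot reach 0.05. Groups without overlap were found for 33.0% of all genes, and among the 8 also for Hel25E, which had 241, 251, 239.9 and 242 CPM in the 4 KD libraries, against 239, 229 and 229.5 CPM in the 3 WT libraries, with a log2 fold change of 0.068 (SE 0.0440, adjusted p = 0.282, edgeR).

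The other 3 genes overlapped between the October groups. Adar had 49.5, 50.2, 48.6 and 49.0 CPM in the 4 KD libraries, against 53.6, 51.0 and 42.4 CPM in the 3 WT libraries. Its WT libraries spread widely, with WT replicate 3 below and WT replicate 1 above all KD libraries, and the log2 fold change was 0.009 (95% interval -0.12 to 0.14). Cpsf73 had 31.2, 29.3, 31.1 and 28.7 CPM in the 4 KD libraries, against 28.0, 27.9 and 30.7 CPM in the 3 WT libraries, with a log2 fold change of 0.059 (95% interval -0.059 to 0.18). Cpsf160 had 37.6, 37.6, 40.1 and 40.8 CPM in the 4 KD libraries, against 37.2, 38.5 and 35.8 CPM in the 3 WT libraries, with a log2 fold change of 0.071 (95% interval -0.038 to 0.18). The subunits of the cleavage complex had unequal log2 fold changes in October, with Cpsf100 past the threshold and Cpsf73 and Cpsf160 not, and the difference between subunits was not tested. The 8 hemocyte markers summed to between 1355 and 1395 CPM in KD and between 1398 and 1513 CPM in WT of October, without overlap. In December they summed to between 2950 and 3318 CPM in KD and between 2935 and 3185 CPM in WT, where they overlapped. Col4a1 and vkg made up most of each sum. In October Col4a1 did not overlap, like 33.0% of all genes, at 778 to 804 CPM in KD and 851 to 910 CPM in WT. Both vkg and Pxn overlapped there, with higher means in KD. Some single markers differed more than these sums. He was at 5.45 to 7.68 CPM in KD and 15.5 to 16.9 CPM in WT of October. Hml was at 205 to 224 CPM in KD and 261 to 338 CPM in WT of December, while srp overlapped in both months. The 4 germ cell markers, of which only aub was at or above 1 CPM, summed to between 6.34 and 6.91 CPM in KD and between 9.78 and 10.9 CPM in WT of October, and lay the other way round in December, at 2.38 to 2.88 CPM in KD and 1.92 to 2.05 CPM in WT. The part of these markers in the results was not tested.

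**Figure D3:**
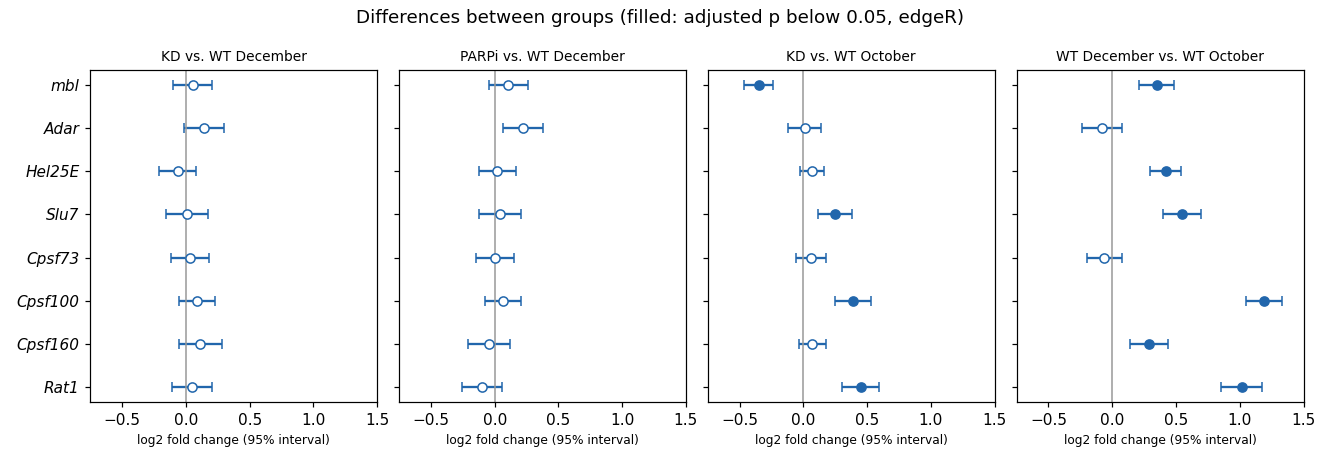
Log2 fold changes of the 8 genes with 95% intervals in 4 comparisons; filled points have an adjusted p below 0.05 (edgeR). No point is filled in either December comparison, 4 are filled in KD vs. WT of October and 6 in WT of December vs. WT of October, where Cpsf100 and Rat1 lie above 1.

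Whether the KD effect differed between the months was tested directly as an interaction over the 13 WT and KD libraries, for which 14.1% of 12652 genes were called. For 3 of the 8 genes it did, 1 with a higher value in December and 2 with a lower one, beside 5.77% and 8.33% of all genes. The effect in December minus that in October was 0.39 (SE 0.0917, adjusted p = 0.00367, edgeR) for mbl, -0.32 (SE 0.0926, adjusted p = 0.0179, edgeR) for Cpsf100 and -0.42 (SE 0.105, adjusted p = 0.00658, edgeR) for Rat1 on the log2 scale. Slu7 had a value of -0.25 (SE 0.0922, adjusted p = 0.0651, edgeR), which missed the threshold, and the other 4 genes had values between -0.15 and 0.12. With the plain totals, which moved the median over all genes to 0.18, Cpsf100 and Rat1 were not called (log2 -0.10 and -0.20, adjusted p = 0.507 and 0.227, edgeR), while mbl was called in all 19 alternatives. Cpsf100 was also not called without KD December replicate 2 (adjusted p = 0.0966, edgeR) or without WT October replicate 3 (adjusted p = 0.0697, edgeR).

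The WT libraries of the 2 months were compared on 1 TMM scale in a model of all 16 libraries, where 59.7% of 12824 genes were called. The month cannot be told apart from anything else that differed between these libraries. Of the 8 genes, 6 were called, and all 6 were higher in December, beside 29.6% of all genes higher and 30.1% lower. Cpsf100 had 10.0, 10.0 and 10.2 CPM per kb in the 3 WT libraries of December, against 4.54, 4.64 and 4.05 CPM per kb in the 3 WT libraries of October. This was the largest difference of the 8, a log2 fold change of 1.19 (SE 0.0694, adjusted p = 3.01e-15, edgeR), or 2.28-fold. Rat1 had 11.5, 10.4 and 10.5 CPM per kb in the 3 WT libraries of December, against 5.86, 5.64 and 4.54 CPM per kb in the 3 WT libraries of October, a log2 fold change of 1.01 (SE 0.0798, adjusted p = 2.7e-12, edgeR), or 2.02-fold. For both genes each December library lay above each October library, and groups without overlap were found for 64.7% of all genes.

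Slu7, Hel25E, mbl and Cpsf160 had smaller differences between the months, with log2 fold changes of 0.55 (SE 0.0741, adjusted p = 1.62e-07, edgeR), 0.42 (SE 0.0593, adjusted p = 3.65e-07, edgeR), 0.35 (SE 0.0680, adjusted p = 5.19e-05, edgeR) and 0.29 (SE 0.0715, adjusted p = 0.000856, edgeR). Cpsf73 had 12.3, 11.5 and 11.3 CPM per kb in the 3 WT libraries of December, against 11.9, 11.8 and 12.9 CPM per kb in the 3 WT libraries of October, which overlapped, and a log2 fold change of -0.061 (95% interval -0.20 to 0.074). Adar also overlapped, with a log2 fold change of -0.081 (95% interval -0.24 to 0.077). These values depend on the scaling: with the plain totals the median over all genes was -0.46, against -0.098 with TMM, mbl, Hel25E and Cpsf160 were not called, at -0.012, 0.055 and -0.072, and Adar and Cpsf73 were called as lower in December (log2 -0.44 and -0.42). Relative to the median over all genes, the plain totals gave 1.28 for Cpsf100, 1.11 for Rat1, 0.44 for mbl and 0.034 for Cpsf73, and TMM gave 1.29, 1.11, 0.45 and 0.037. A change of scaling moves every gene and the median by nearly the same amount. The likeness of these values was therefore fixed beforehand and is no check of the scaling. The hemocyte gene Hml differed far more, with a mean of 302 CPM in WT of December and 15.5 CPM in WT of October on the scale of all 16 libraries. The hemocyte markers srp, Pxn, Col4a1 and vkg were also higher in December, while He, eater and NimC1 were higher in October. He and eater had means of 2.51 and 6.78 CPM in WT of December and 15.1 and 11.3 CPM in WT of October. The part of such differences between the cells in these results was not tested.

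A ratio between genes of the same library does not depend on the scaling. Per kilobase, the ratio of Cpsf100 to Cpsf73, the partners of the cleavage complex, was 0.866, 0.906 and 0.902 in KD, 0.895, 0.893 and 0.911 in PARPi and 0.819, 0.868 and 0.896 in WT of December. In October it was 0.431, 0.492, 0.440 and 0.450 in KD and 0.380, 0.392 and 0.315 in WT. All 9 December libraries were above all 7 October libraries, and in October the KD libraries were above the WT libraries. How many other pairs of genes show such an order was not computed, for this or the following ratios. Cpsf73 overlapped in both comparisons, so this ratio largely restates the difference of Cpsf100. The ratio of Rat1 to Cpsf73 was also lower in each October library than in each December library, at 0.574 ± 0.0241 in KD (SD, n = 4) and 0.440 ± 0.0758 in WT (SD, n = 3) of October, and at 0.933 ± 0.0366 in KD, 0.859 ± 0.0243 in PARPi and 0.923 ± 0.0150 in WT of December (SD, n = 3 each). In December its PARPi libraries, between 0.833 and 0.881, lay below all KD and WT libraries, which those of the ratio of Cpsf100 to Cpsf73 did not. The ratio of Cpsf160 to Cpsf73 was 0.587 ± 0.0404 in KD (n = 4) and 0.583 ± 0.0505 in WT (n = 3) of October, with overlapping ranges. The convergent genes Slu7 and Cpsf100 had a ratio of 1.38, 1.43, 1.41 and 1.52 in KD and 1.58, 1.51 and 1.66 in WT of October, and of 1.01 ± 0.0173 in WT of December (SD, n = 3).

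**Figure D4:**
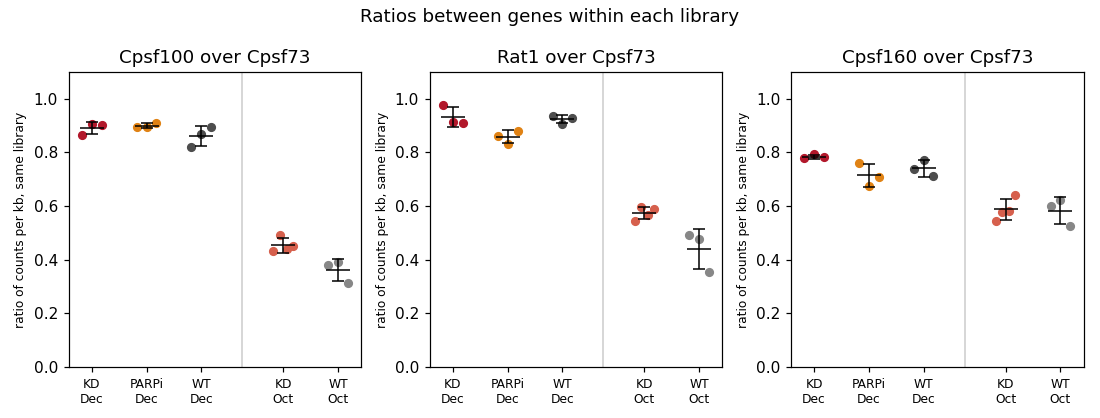
Ratios of counts per kilobase between genes of the same library, for Cpsf100, Rat1 and Cpsf160 over Cpsf73; points are libraries, marks and bars the mean and SD (n = 3, or 4 for KD of October). The ratio of Cpsf100 to Cpsf73 lies between 0.819 and 0.911 in December and between 0.315 and 0.492 in October.

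How the 8 genes varied together over the libraries is given as a description, since libraries of a month share whatever set that month apart. Over the 16 libraries, the log2 CPM of Cpsf100 and Rat1 had a Pearson's r of 0.97, that of Cpsf100 and Slu7 0.96 and that of Hel25E and Cpsf100 0.95. Within December (n = 9) the same pairs had r of 0.44, 0.65 and 0.013, and within October (n = 7) 0.97, 0.96 and 0.89. mbl and Cpsf100 had r of 0.81 over all 16 libraries and -0.82 within October, where the groups moved in opposite directions. Among 6598 genes with a mean of at least 5 CPM, the gene most like Cpsf100 over the 16 libraries was CG1910 (r = 0.99), followed by Cortactin (0.99). Those most like Rat1 were FBgn0284251 and CG8858 (0.99 each), those most like Slu7 Rep and Cyfip (0.98 each), and those most like mbl CG8046 (0.99) and CG32984 (0.98). Hel25E was most like eIF2gamma and CCT7 (0.98 each), Cpsf160 like SMC2 and Nup160 (0.97 each), Cpsf73 like sstn and RhoGAP68F (0.83 each) and Adar like CG6845 and Nipped-B (0.80 each).

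The genes around these 8 in the same processes were followed as 7 lists of 47 genes in all, of which 45 were tested: partners in the second splicing step, in 3′ end processing, in 5′ to 3′ decay and termination, in export, in editing and double-stranded RNA, in backsplicing and in the decay of circles. In December, 0 of the 45 were called in PARPi vs. WT by edgeR and by DESeq2, and 4 had an unadjusted p below 0.05. In KD vs. WT 1 was called by edgeR, beside 7.73% of all genes, and 2 by DESeq2. The 1 called by edgeR was the export factor Nxt1, a partner of the export receptor, with 67.6 ± 8.10 CPM in KD and 83.0 ± 4.26 CPM in WT (SD, n = 3 and 3), a log2 fold change of -0.30 (adjusted p = 0.0328, edgeR). The median of the 45 was 0.048 in KD, beside 0.015 over all genes, and -0.011 in PARPi, beside -0.0099.

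In October 15 of the 45 were called in KD vs. WT by edgeR, 12 higher and 3 lower, beside 27.8% of all genes, and 17 by DESeq2. The plain totals moved the median over all genes from 0.011 to -0.063, and Slu7 lost its call there. Values of the companions in that scaling are not given. All 4 called genes of the backsplicing list (7 tested) were higher in KD. The hnRNP gene Hrb87F had 158 ± 5.64 CPM in KD and 130.3 ± 1.45 CPM in WT (SD, n = 4 and 3), a log2 fold change of 0.28 (adjusted p = 0.000104, edgeR). The SR protein gene B52 rose by 0.20 on the log2 scale (edgeR, adjusted p = 0.00475). In the list of editing and double-stranded RNA, the helicase gene mle rose, with 37.3 ± 1.54 CPM in KD and 28.9 ± 3.16 CPM in WT (SD, n = 4 and 3), a log2 fold change of 0.37 (adjusted p = 0.000186, edgeR), and blanks fell, with a log2 fold change of -0.18 (edgeR, adjusted p = 0.0144). Beside Rat1, the termination factor Pcf11 rose, with 95.8 ± 5.46 CPM in KD and 79.0 ± 2.80 CPM in WT (SD, n = 4 and 3), a log2 fold change of 0.28 (adjusted p = 0.000276, edgeR), scaf6 rose by 0.22 on the log2 scale and cuff had a log2 fold change of -0.32 (edgeR, adjusted p = 0.0137 and 0.0112).

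Beside Slu7, the helicase genes pea and Prp16 of the second splicing step rose in KD of October, by 0.22 and by 0.22 on the log2 scale (edgeR, adjusted p = 0.0107 and 0.00241), while Prp8 and Prp18 were not called. Beside Hel25E, the THO genes tho2 and thoc6 rose and thoc7 fell, at 0.25, 0.17 and -0.18 on the log2 scale. In the decay list gw, the GW182 protein gene, rose by 0.15 on the log2 scale (adjusted p = 0.013, edgeR). None of the 14 tested genes of 3′ end processing was called by edgeR or by DESeq2, 3 had an unadjusted p below 0.05, and their median was 0.048. Cpsf100 was called in October while no listed partner of 3′ end processing was, a difference that was not tested.

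The interaction of KD and month was called for 5 of the 45 by edgeR, beside 14.1% of all genes, and for 7 by DESeq2. All 5 had a lower value in December than in October, a direction called for 8.33% of all genes: mle -0.37 (adjusted p = 0.00629, edgeR), Pcf11 -0.33 (adjusted p = 0.00638, edgeR), Prp16 -0.28 (adjusted p = 0.0169, edgeR), Prp18 -0.34 (adjusted p = 0.0237, edgeR) and tho2 -0.25 (adjusted p = 0.037, edgeR). For the interaction, the plain totals moved the median over all genes from -0.034 to 0.18, and Cpsf100 and Rat1 lost their calls. Their values for these 5 companions are not given. Between the WT libraries of December and October 38 of the 45 were called by edgeR, beside 59.7% of all genes, and 35 by DESeq2. Of the 38, 31 were higher in December, a direction called for 29.6% of all genes. These values depend on the scaling too. The plain totals moved the median over all genes from -0.098 to -0.46, and their values for the companions are not given. The 3′ end processing list had 13 of 14 called, all 13 higher in December, with a median of 0.40 and the largest value for symplekin (Sym), the scaffold that joins Cpsf73 and Cpsf100 in the cleavage complex, at 26.5 ± 1.14 CPM in December and 14.9 ± 1.21 CPM in October (SD, n = 3 and 3), a log2 fold change of 0.83 (adjusted p = 1.01e-10, edgeR). The next genes by adjusted p were hrg and Fip1, with log2 fold changes of 0.47 and 0.49. Export genes were split, with 2 of 9 higher in December and 4 lower, led by tho2 (log2 fold change 0.87), thoc7 (-0.69) and Nxt1 (-0.51). In the second splicing step, Prp16, Prp8 and pea had log2 fold changes of 1.16, 0.50 and 0.19. Of the decay and termination genes, Pcf11, cuff and scaf6 were at 0.82, -1.36 and 0.33 on the log2 scale. The editing list had mle at 1.03 and Zn72D at 0.43, the backsplicing list Hrb27C at 1.04, Hrb87F at 0.84 and B52 at 0.82, and the list for the decay of circles gw at 0.85, Upf1, a helicase of nonsense-mediated decay, at 0.86 and AGO1 at -0.16.

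**Figure D5:**
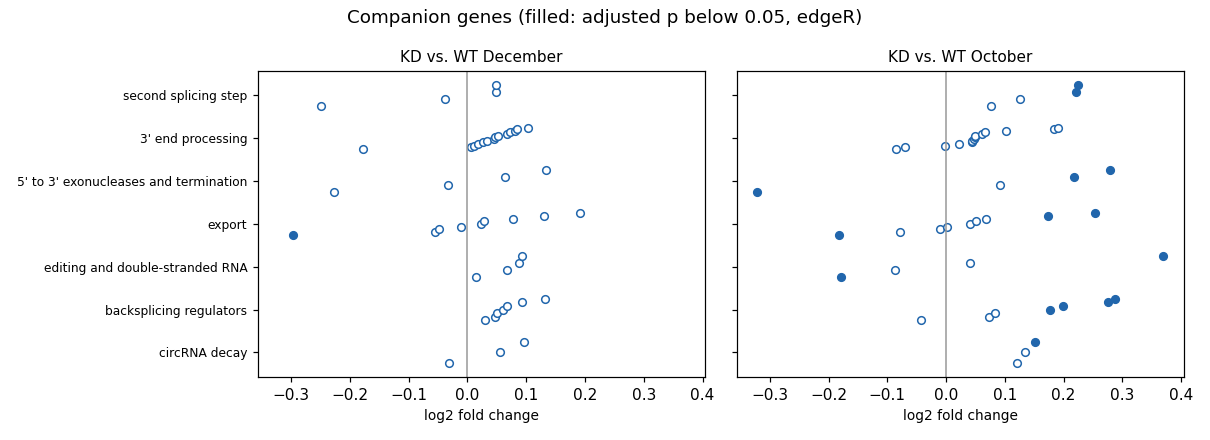
Log2 fold changes of the 45 companion genes by list, in KD vs. WT of December and of October; each point is a gene, filled where the adjusted p is below 0.05 (edgeR). A single point, Nxt1, is filled for December and 15 are filled for October, none of them in 3′ end processing.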

How the data were processed

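Ribosomal-depleted RNA of S2 cells was sequenced in 16 libraries. The authors aligned untrimmed reads to BDGP6 with STAR 2.6, counted them per gene with HTSeq 0.10.0 and deposited the raw counts, neither filtered nor normalized. The release of the annotation, the strand setting and the handling of reads that match several places were not found in the sources used here. The table holds 17737 genes, of which 17599 matched the Ensembl annotation of BDGP6 (release 115), which gave positions and exon lengths. Replicate libraries were not copies of each other (chi-square per gene between 7.35 and 131), so each was used as 1 replicate. This does not show that they came from separate cultures.

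A gene entered a fit if its counts summed to at least 10 there. Counts were scaled by TMM and tested by quasi-likelihood in edgeR 4.0.16 (R 4.3.3), with p-values adjusted by Benjamini-Hochberg over all genes tested. December was fitted as 1 model of 3 groups (9 libraries), October alone (7), the interaction over 13 libraries and the months over all 16. CPM were scaled within their month. Values per kb and the CPM of WT compared between the months used the scale of all 16 libraries. Intervals of 95% use the standard error and the degrees of freedom of the fit. Same-numbered libraries of KD and PARPi deviated together in all 3 pairs (r between 0.175 and 0.644). Their numbers were taken to pair them, only as a hint from the data. KD replicate 2 and PARPi replicate 3 (r = 0.2345) were more alike than KD and PARPi replicate 3 (0.1753). No other pair of groups had r over 0.1 in all 3 same-numbered pairs. Permutation tests were exact (scipy 1.17.1). Log2 CPM for correlations used a prior count of 2.

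The genes named are the 8 members, Parp1, the called companions with the smallest adjusted p (at most 3 per list and comparison; others of at least 1 CPM may be named by their range) and the 2 genes most like each member. The results of 1 companion that this rule names are not reported here. Prp8 was named beyond this rule, after its values were seen, and CstF64, prage and Wee1 for their overlap with a member. The members and lists were chosen with earlier results of these data known. Of the 47 companions, 1 (CFIm25) matched no row and 1 (CG6015) had 0 counts throughout. Counting error of the members was between 0.626% and 3.83% of a level, against a median coefficient of variation between replicates of 4.80%.

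Alternatives were DESeq2 1.42.0, RLE size factors, plain totals that leave out the 20 most abundant genes, no filter, filterByExpr, a fit of the 2 groups alone, a replicate block, both months with a month term, removal of a trend on exon length (spline with 5 degrees of freedom) and each library left out. On simulated data for KD vs. WT, edgeR recovered 93% of 100 genes changed by 0.4 (log2) in December (11533 genes) and 100% in October (11915 genes), with 3.5% and 4.76% of all calls false.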

Additional observations from a re-analysis of the deposited data

Results flagged for a closer look

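The KD effect of 3 genes differed between the months by a test of the interaction (edgeR, adjusted by Benjamini-Hochberg). It was higher in December than in October for mbl, by 0.39 on the log2 scale (adjusted p = 0.00367, edgeR), and mbl was called as lower in KD in October alone. It was lower in December for Cpsf100 (log2 difference -0.32, adjusted p = 0.0179, edgeR) and for Rat1 (log2 difference -0.42, adjusted p = 0.00658, edgeR), which were called as higher in KD in October alone. In the October KD group, the only group of more than 3 libraries, no library stood apart by Dixon's test for any of the 8 genes.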

How the results depend on the processing

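With DESeq2, with RLE size factors and with only the 2 groups compared, all 8 genes kept their direction and their side of the threshold in every comparison run. Same-numbered libraries correlated between 0.18 and 0.64 in KD and PARPi of December (3 pairs). They correlated between -0.061 and 0.25 in KD and WT and between -0.013 and 0.17 in PARPi and WT of December. In KD and WT of October they correlated between -0.0043 and 0.13. In these 3 comparisons the correlations did not show a pairing by number, and 3 pairs each cannot exclude one. A replicate block changed no call of the 8 genes (mbl in KD of October: log2 fold change -0.34, adjusted p = 4.18e-05, edgeR). Over all genes the block gave 1609 calls against 907 in KD vs. WT of December, 496 against 34 in PARPi vs. WT, 1738 against 648 in KD vs. PARPi and 3265 against 3364 in KD vs. WT of October. DESeq2 called 135 genes in PARPi vs. WT, against 34 by edgeR.

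In PARPi vs. WT of December, 1 of the 8 genes was called with the length trend removed (Adar), where Cpsf73 was at -0.0082 (log2, as are all values below). In KD vs. WT of December 1 was called with the plain totals (Adar, 0.27, adjusted p = 0.0435, edgeR), where Hel25E was at 0.065, and 2 in a fit of both months with a month term (Cpsf100, 0.25, adjusted p = 0.00702, and Rat1, 0.27, adjusted p = 0.0164, edgeR), where mbl was at -0.14 and Hel25E at 0.022. Slu7 was at -0.0025 with no filter and, with the length trend removed, Slu7, Cpsf73 and Rat1 were at -0.026, -0.012 and -0.027. In KD vs. PARPi the plain totals put mbl, Adar, Hel25E and Slu7 at 0.048, 0.021, 0.014 and 0.061. In KD vs. WT of October they put Adar, Hel25E, Cpsf73 and Cpsf160 at -0.068, -0.0078, -0.015 and -0.0044, and removing the length trend put Adar at -0.090 and Cpsf160 at -0.019. For the interaction, the plain totals put Hel25E at 0.069 and Cpsf73 at 0.17 and called Adar (0.33, adjusted p = 0.0227, edgeR), and filterByExpr put Cpsf73 at 0.0052. Between the WT libraries the plain totals put mbl at -0.012 and Cpsf160 at -0.072. The plain totals moved the share of all called genes that were higher to 79.1% in KD vs. WT of December (26.9% with TMM), to 85.9% in KD vs. PARPi (53.9%), to 27.2% in KD vs. WT of October (49.5% with TMM), to 88.0% for the interaction (40.9%) and to 24.2% between the WT libraries (49.6%), with medians over all genes of 0.14, 0.10, -0.063, 0.18 and -0.46. The cause was not tested.

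With each library left out in turn, the 4 calls of KD vs. WT in October held each time, between -0.40 and -0.32 for mbl, 0.22 and 0.27 for Slu7, 0.33 and 0.42 for Cpsf100 and 0.35 and 0.51 for Rat1. In KD vs. PARPi between 0 and 1 of the 8 genes was called. Uncalled values that changed sign lay between -0.042 and 0.067 for Hel25E, -0.034 and 0.11 for Slu7, -0.041 and 0.042 for Cpsf73 and -0.14 and 0.023 for Cpsf160 in PARPi vs. WT. They lay between -0.041 and 0.035 for Slu7, -0.0041 and 0.059 for Cpsf73 and -0.022 and 0.086 for Rat1 in KD vs. WT of December, and between -0.11 and 0.033 for Slu7, -0.0095 and 0.064 for Cpsf73 and -0.013 and 0.046 for Cpsf100 in KD vs. PARPi. In KD vs. WT of October, Adar lay between -0.089 and 0.076. For the interaction, Cpsf73 lay between -0.082 and 0.052 and Cpsf160 between -0.024 and 0.11, and Slu7 was called without KD December replicate 1 (-0.30, adjusted p = 0.0370, edgeR). Between the WT libraries Adar lay between -0.18 and 0.0095, and was called without WT October replicate 3 (-0.18, adjusted p = 0.0402, edgeR).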
